A study of Mus musculus with 4 samples.

Results

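Sorcs1, Ntm, Sema5a, Psd3 and Dock10 are 5 genes classed here as neural or guidance-type. Each had a higher average in kidney proximal tubule nuclei of cisplatin-treated mice than in those of untreated mice. They were picked by symbol, as neural or guidance-type genes with that direction, from 21312 genes in a table of proximal tubule nuclei and 24468 genes in a table of 17 clusters. All 5 were in both tables. The treated group, Cis9w, is male C57BL/6 mice given 4 weekly injections of 8 mg/kg cisplatin, a platinum drug that injures the proximal tubule, with kidneys taken 9 weeks after the first injection. The control group, CT9w, is labelled untreated and carries the same week. Each group has 2 samples of cortex with outer medulla, and RNA of their single nuclei was counted by unique molecular identifiers (UMIs) with a droplet 3' kit. Every column of both tables pools nuclei without naming a sample, which leaves no spread between animals and no test across them. The sources used here do not give how many samples of each group the proximal tubule table holds. The labels of the samples numbered 1 point to it and those of the samples numbered 2 to the cluster table, and its UMIs come to 57.6% of those in the 6 proximal tubule clusters. If it holds 1 sample per group, each ratio below compares single samples.

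The 5 proteins act at different steps of how a cell handles its surface and its outgrowths. SORCS1 is a sorting receptor of the sortilin family that moves membrane proteins between endosomes and the cell surface, and in neurons it sorts the synaptic protein neurexin. NTM (neurotrimin) is an adhesion protein of the IgLON family, anchored to the membrane by a lipid. SEMA5A is a membrane-bound semaphorin, a guidance cue that attracts or repels growing axons through plexin receptors. PSD3 switches on the small GTPase ARF6, which governs membrane recycling and actin at the cell edge, and DOCK10 switches on the GTPase CDC42, which shapes dendritic spines in neurons and is also used by lymphocytes. The proximal tubule is the nephron segment that takes back most of the filtered solutes, and cells of it that repair poorly after injury take on a separate expression state.

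The proximal tubule pools held 8557662 UMIs in Cis9w and 5123727 in CT9w. The 17 clusters held 36068714 UMIs in all, and 6 of them carry a proximal tubule name. Values are the authors' averages, in normalised UMIs per nucleus, and the tables were scaled separately, so levels are not compared across them. Intervals are 95% exact intervals on UMI sums and cover counting error only. The summed average of 8 proximal tubule markers was 36.1 in Cis9w and 35.0 in CT9w, and no marker of that list was 2-fold apart. In the cluster table it was 3.93 in PT-injury/repair and between 15.0 and 38.0 in the other 5 proximal tubule clusters.

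The genes lie on 5 different chromosomes of mm10 (GRCm38), and each of them is long. Sorcs1 spans 50143299 to 50678646 on chromosome 19 and Ntm spans 28994750 to 29963141 on chromosome 9, next to its family member Opcml. Sema5a spans 32244810 to 32696341 on chromosome 15, Psd3 spans 67689082 to 68212027 on chromosome 8, and Dock10 spans 80501073 to 80758527 on chromosome 1. Promoters of 4 of the 5, from 250 bases before to 50 bases after a RefSeq start on GRCm38.p6, are shown because these genes were higher in the same group. Psd3 had no match. Where RefSeq lists 2 starts, as for Ntm and Dock10, the start nearest to the 5' end of the GENCODE span is shown. Capitals mark matches on either strand to a GC box (GGGCGG) or a TEAD motif (GGAATG), and the same search was made for AP-1 (TGANTCA) and a TATA box (TATAAA).
Sorcs1 promoter, chr19:50678597-50678896, minus strand: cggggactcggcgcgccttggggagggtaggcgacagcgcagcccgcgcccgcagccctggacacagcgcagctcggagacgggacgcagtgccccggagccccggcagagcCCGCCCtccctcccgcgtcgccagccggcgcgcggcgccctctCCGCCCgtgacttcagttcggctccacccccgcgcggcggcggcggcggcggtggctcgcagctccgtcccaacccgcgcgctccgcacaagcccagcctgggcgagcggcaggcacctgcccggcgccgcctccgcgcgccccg
Ntm promoter, chr9:29413403-29413702, minus strand: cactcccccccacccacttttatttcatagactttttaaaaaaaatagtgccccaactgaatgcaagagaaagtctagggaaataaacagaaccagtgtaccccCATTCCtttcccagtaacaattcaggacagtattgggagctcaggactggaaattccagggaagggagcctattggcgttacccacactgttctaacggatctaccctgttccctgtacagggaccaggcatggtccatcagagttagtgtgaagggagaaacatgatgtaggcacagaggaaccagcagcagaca
Sema5a promoter, chr15:32244563-32244862, plus strand: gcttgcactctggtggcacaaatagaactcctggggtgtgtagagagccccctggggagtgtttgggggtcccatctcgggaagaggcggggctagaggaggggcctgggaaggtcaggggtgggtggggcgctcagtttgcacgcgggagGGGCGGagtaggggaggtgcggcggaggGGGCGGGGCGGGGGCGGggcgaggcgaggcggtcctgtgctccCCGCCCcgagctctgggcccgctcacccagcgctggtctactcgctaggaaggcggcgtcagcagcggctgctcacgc
Dock10 promoter, chr1:80758504-80758803, minus strand: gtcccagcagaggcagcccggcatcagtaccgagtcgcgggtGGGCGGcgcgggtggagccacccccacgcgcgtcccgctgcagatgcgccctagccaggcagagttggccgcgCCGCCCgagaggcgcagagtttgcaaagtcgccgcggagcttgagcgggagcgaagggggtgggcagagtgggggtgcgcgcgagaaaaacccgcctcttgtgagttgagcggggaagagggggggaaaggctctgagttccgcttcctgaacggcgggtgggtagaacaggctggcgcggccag

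No motif searched occurred in all 4 of these promoters. The GC box occurred in 3 of 4, with 5 matches in Sema5a and 2 each in Sorcs1 and Dock10, and it is in 35.7% of the 32851 promoters of the same length. A pair of the Sema5a matches share a base. The TEAD motif occurred in Ntm alone among the 4 and is in 14.7% of all promoters. AP-1 and TATA box letters were in none of these 4 windows, and are in 7.81% and 13.6% of all. The looser NF-kB letters (GGG, 5 bases of any kind and CC, in Sorcs1 once overlapping a GC box) and E-box (CANNTG) letters, not capitalised, were each in Sorcs1, Ntm and Dock10 and are in 50.8% and 72.3% of all. The Sorcs1 window is 80.7% G and C with 50 CpG, against medians of 52.7% and 7 CpG over all promoters. The Ntm window has 47.3% and 2 CpG. Its start lies inside the GENCODE span, 549689 bases from the 5' end, against 0 for Sorcs1, 3 for Sema5a and 26 for Dock10. The Ntm window is therefore not like the others in place.

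Cis9w was set against CT9w to see which differences the tubule still holds long after repeated dosing. Because the genes were picked on this contrast, their values here are a description. Sorcs1 averaged 0.0837 in Cis9w (256 UMIs) and 0.00437 in CT9w (8 UMIs), a ratio of 19.2 (9.58 to 44.9). Dock10 averaged 0.293 in Cis9w (896 UMIs) and 0.0147 in CT9w (27 UMIs), a ratio of 19.9 (13.6 to 30.3). Ntm averaged 0.0624 in Cis9w (191 UMIs) and 0.00382 in CT9w (7 UMIs), a ratio of 16.3 (7.78 to 41.2). Dock10 rested on few UMIs in the untreated pool and Sorcs1 and Ntm lay near its limit of counting, where 3 UMIs give an average of 0.00164.

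Psd3 and Sema5a were already present in the untreated pool and differed less. Psd3 averaged 0.273 in Cis9w (835 UMIs) and 0.0617 in CT9w (113 UMIs), a ratio of 4.42 (3.63 to 5.43). Sema5a averaged 1.16 in Cis9w (3550 UMIs) and 0.613 in CT9w (1123 UMIs), a ratio of 1.89 (1.77 to 2.03). The counting intervals of the pools did not overlap for any of the 5. These genes were picked for this direction, and the share of all genes whose intervals do not overlap is not given here. A fold of 2 in the authors' deposited table was used as the call, so 4 of the 5 were called higher and Sema5a, whose deposited log2 fold change was 0.92, lay just under it. Of 10656 genes at or above an expression floor (a mean of the Cis9w and CT9w averages of 0.0154, its median over genes), 2.51% were called higher and 2.03% lower. The deposited p, whose test is not named and which measures nothing between animals, was under 0.05 for all 5, as for 1.51% of genes at the floor in the higher direction. Ranked by deposited fold among those genes, Dock10 was at place 6, Sorcs1 at 7, Ntm at 8, Psd3 at 47 and Sema5a at 324. Dock10, Sorcs1 and Ntm averaged under the floor in CT9w and passed it only through their Cis9w averages. The calls and places of the 5 are therefore a description, as they use the contrast the genes were picked on. A pooled average cannot tell apart more nuclei that express a gene from more RNA in each.

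**Figure D1:**
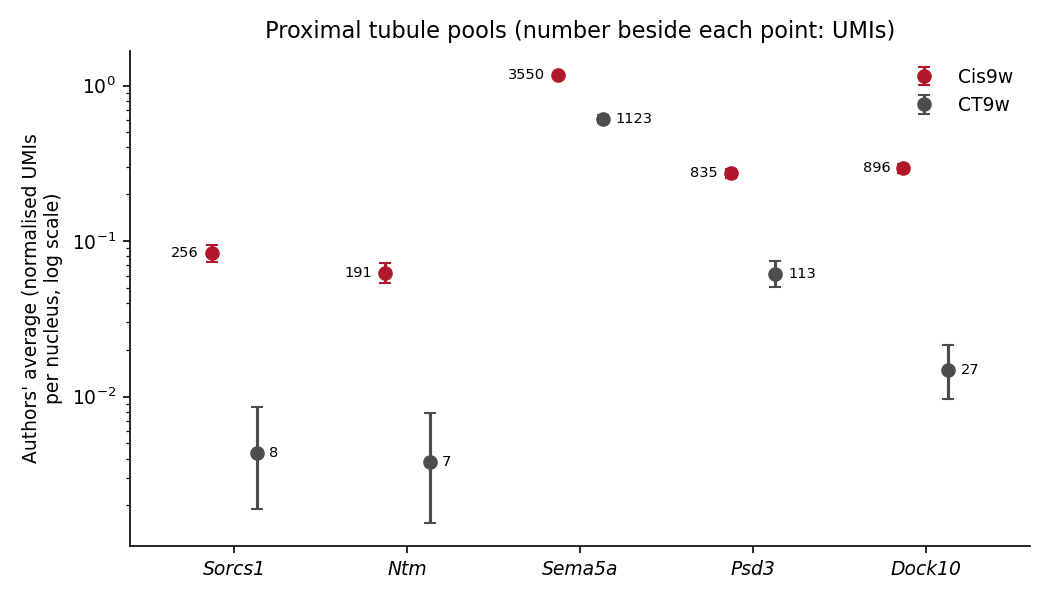
Averages of the 5 genes in the proximal tubule pools of Cis9w (red) and CT9w (grey), in normalised UMIs per nucleus on a log axis, with 95% exact Poisson intervals for counting error and the UMIs beside each point. Cis9w lies above CT9w for each gene, by 19.9 times for Dock10 and by 1.89 times for Sema5a.

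The cluster table, whose columns name no group, shows where in the kidney each gene was read. Among the 6 proximal tubule clusters all 5 genes were highest in PT-injury/repair, the cluster that also held the highest summed average of 13 injured tubule markers (8.05, against at most 1.98 in the other 5). How the clusters were made is not stated, and these genes may be among those used, so this too is a description. PT-injury/repair held 6.92% of the UMIs of the 6 clusters, and the median gene at the floor had 7.26% of its proximal tubule UMIs there.

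Sorcs1 was close to absent outside that cluster. It averaged 0.545 in PT-injury/repair (446 UMIs), while the other 5 clusters of the proximal tubule reached no more than 0.00460, with 20 UMIs in all. That is 95.7% of its proximal tubule UMIs (interval 93.4 to 97.4), and 90.5% of its UMIs in all 17 clusters. Next came Podocyte with 0.0312, from 10 UMIs, and mixed-2 with 0.0237, from 3 UMIs. From Podocyte down, no neighbours in the order differed beyond counting error. Sorcs1 had 0 UMIs in 7 clusters, for which the upper exact limits were 0.00203 in PT-S3-2 and 0.0204 in Immune cells, the deepest and the shallowest of them.

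Ntm had the same leading cluster and was also read in the mixed clusters. It averaged 0.325 in PT-injury/repair (266 UMIs) and between 0.00352 and 0.00752 in the other 5 proximal tubule clusters, so 82.9% of its proximal tubule UMIs (78.3 to 86.8) were in that cluster. Mixed-1, the cluster with the highest sum of fibroblast and mesangium markers (3.44), followed with 0.0939 from 42 UMIs, and mixed-2 with 0.0789 from 10. These 2 did not differ beyond counting error, and every cluster below them was at or under 0.0111.

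Sema5a was read in every cluster. It averaged 3.79 in PT-injury/repair (3105 UMIs), followed by 2.77 in Podocyte, 1.13 in PC and 1.11 in TAL, of which PC and TAL did not differ beyond counting error. In the other 5 proximal tubule clusters it lay between 0.359 and 0.484, and it was lowest in IC-A/IC-B at 0.0932. PT-injury/repair held 39.3% of its proximal tubule UMIs (38.2 to 40.4), the smallest share of the 5 genes.

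Psd3 was low in most of the proximal tubule and present elsewhere. It averaged 1.43 in PT-injury/repair (1168 UMIs), against a range of 0.0296 to 0.107 over the other 5 clusters of the proximal tubule and of 0.482 to 1.90 in the 11 clusters outside the proximal tubule. Mixed-1 was the only cluster above PT-injury/repair. Among the 9 clusters from IC-A/IC-B (0.926) down to EC1 (0.658), neighbours in the order did not differ beyond counting error. The first and the last of them did not overlap, with intervals of 0.857 to 0.999 for IC-A/IC-B and 0.570 to 0.755 for EC1. PT-injury/repair held 74.5% of the proximal tubule UMIs of Psd3 (72.3 to 76.7) but 17.8% of its UMIs in all 17 clusters.

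Dock10 was highest in Immune cells, where it averaged 2.81 (509 UMIs). PT-injury/repair was next with 1.64 (1346 UMIs), then Mixed-1 with 1.23, mixed-2 with 0.410 and PC with 0.184, each below the one before beyond counting error. The other 5 proximal tubule clusters lay between 0.0145 and 0.0466, and 86.2% of the proximal tubule UMIs (84.4 to 87.9) were in PT-injury/repair. In this kidney Dock10 and Psd3 were not restricted to 1 cluster, while Sorcs1 and Ntm were each over 0.1 in a single cluster.

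**Figure D2:**
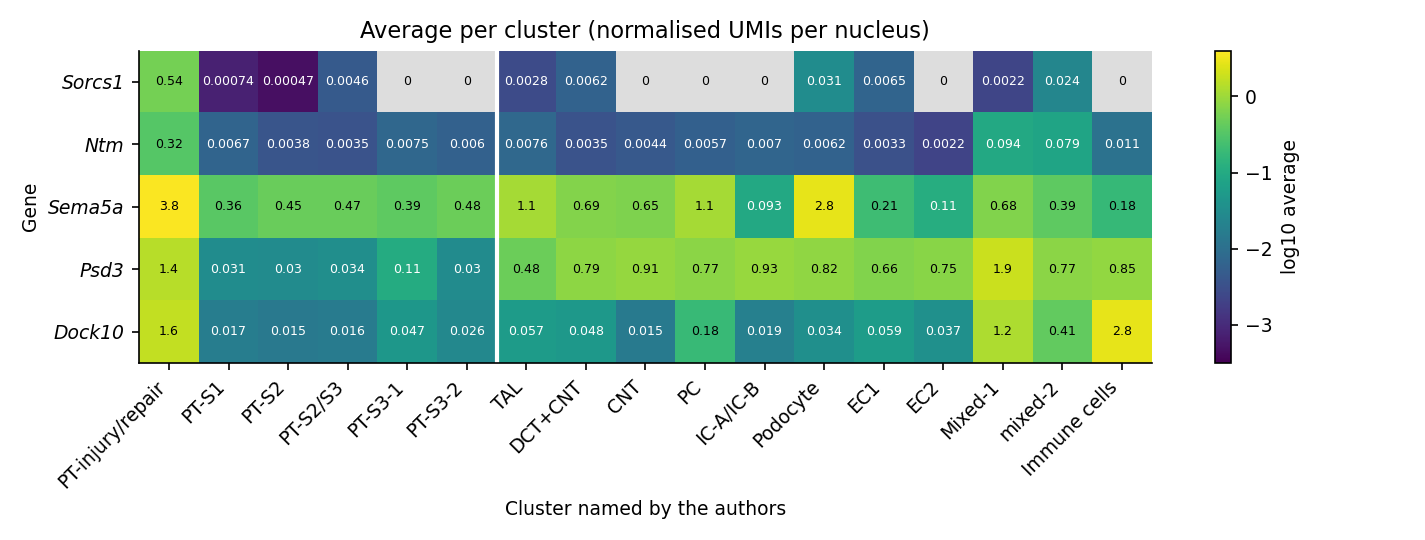
Averages of the 5 genes in the 17 clusters, in normalised UMIs per nucleus, coloured on a log10 scale (grey marks 0 UMIs), with the proximal tubule clusters left of the white line. The PT-injury/repair column is the highest of the 6 proximal tubule columns for each gene, while Immune cells is highest for Dock10 and Mixed-1 for Psd3.

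A large share in PT-injury/repair came with a higher average in Cis9w for these 5 genes, which were picked for that higher average. Among other genes a large share did not always come with one. Sorcs1, Dock10 and Ntm had shares of 95.7%, 86.2% and 82.9% and ratios of 19.2, 19.9 and 16.3, followed by Psd3 (74.5%, 4.42) and Sema5a (39.3%, 1.89). The sources used here do not say whether the tables share nuclei. At a share of at least 50%, a limit chosen after the data were seen, there were 171 other genes at the floor, of which 78 (45.6%) were called higher and 8 (4.68%) lower, and the authors' deposited table gave them a median log2 fold change of 0.82, against 0.03 for all genes at the floor. Sorcs3, a close relative of Sorcs1, had 80.2% of its proximal tubule UMIs in PT-injury/repair (202 of 252) but a ratio of 1.11 (0.773 to 1.61), from 89 UMIs in Cis9w and 48 in CT9w. The potassium channel subunit gene Kcnmb2 had a share of 92.9% and a ratio of 0.487 (0.303 to 0.780), from 35 UMIs in Cis9w and 43 in CT9w. The channel gene Kcnk2, named after its values were seen, had a share of 91.7% and, by the authors' deposited table, a log2 fold change of -4.25.

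**Figure D3:**
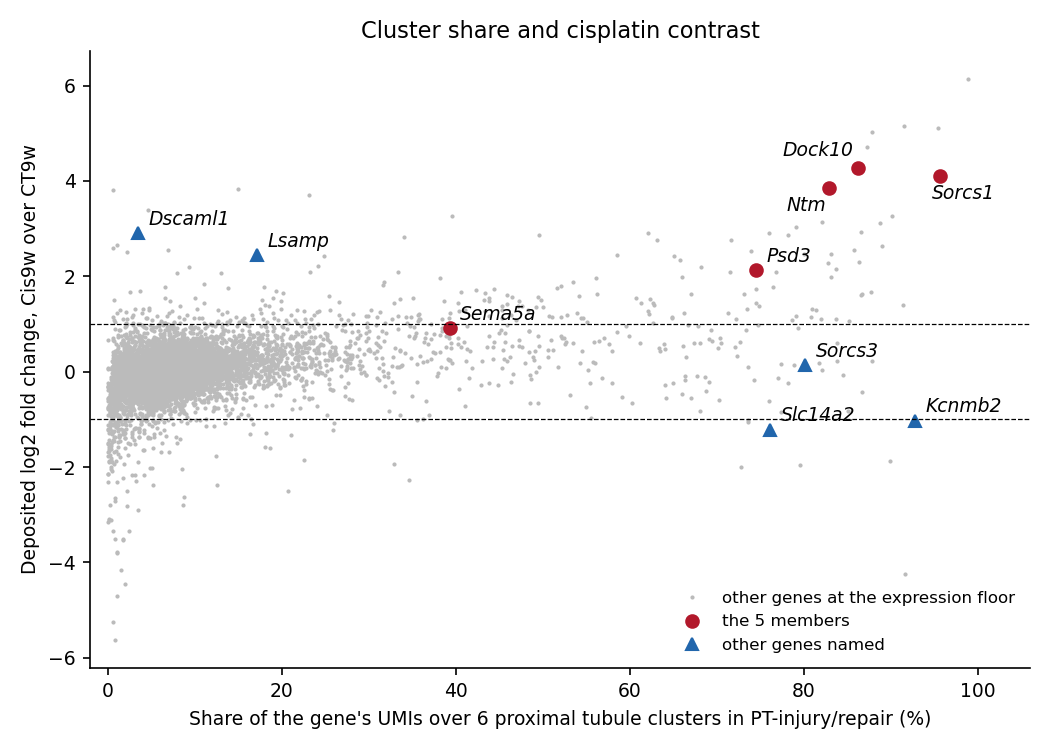
Share of each gene's UMIs over the 6 proximal tubule clusters that lay in PT-injury/repair (x axis, percent) against the deposited log2 fold change of Cis9w over CT9w (y axis), for 10656 genes at the expression floor (grey), with other named genes as blue triangles. Dashed lines mark a fold of 2. The 5 genes (red) lie between 39.3% and 95.7%, and Sorcs3 (80.2%) and Kcnmb2 (92.9%) lie at like shares with ratios of 1.11 and 0.487.

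Relatives of the 5 genes were read in the same contrast, over 10 lists of families and pathways with 178 other genes, of which 167 were in the table and 86 at the floor. Of the 86, 9 were called higher (10.5%) and 3 lower (3.49%), beside 2.51% and 2.03% of all genes at the floor, and 74 lay within 2-fold. By the deposited p, 4 were higher and 3 lower, beside 1.51% and 1.78% of all genes at the floor. In the authors' deposited table their log2 fold changes had a median of 0.15.

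In the sortilin family no gene other than Sorcs1 was called. Sort1, which sorts proteins to lysosomes, had a ratio of 1.01 from 76 UMIs in Cis9w and 45 in CT9w. Sorl1, a sorting receptor of the amyloid precursor protein, had a ratio of 0.798 (0.696 to 0.915), and Sorcs2 was under the floor with 23 UMIs in Cis9w and 12 in CT9w. Genes of the retromer, the coat that carries such receptors back from endosomes, were all 9 at the floor with none called, and their median log2 fold change was 0.08.

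Among IgLON adhesion genes Lsamp was also higher. It averaged 0.0918 in Cis9w (281 UMIs) and 0.0164 in CT9w (30 UMIs), a ratio of 5.61 (3.84 to 8.47), and the call was lost by the deposited p and with the floor at the 75th percentile. Unlike Ntm, Lsamp had 17.2% of its proximal tubule UMIs in PT-injury/repair, and it was highest in IC-A/IC-B at 14.6. The other 3 were under the floor, with 8 UMIs in Cis9w and 4 in CT9w for Opcml, 29 in Cis9w and 24 in CT9w for Negr1, and 3 in Cis9w and 1 in CT9w for Iglon5. Opcml, the neighbour of Ntm on chromosome 9, was highest in Podocyte at 1.92.

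Semaphorins other than Sema5a showed no call among 8 at the floor, with a median log2 fold change of 0.06. Sema5b, the closest relative, had a ratio of 0.664 (0.437 to 1.01) from 51 UMIs in Cis9w and 46 in CT9w. Among plexins and neuropilins, the receptors of semaphorins, 1 of 7 was called higher. That was Plxnb1, a plexin that binds the semaphorin SEMA4D, at 0.0222 in Cis9w (68 UMIs) and 0.00873 in CT9w (16 UMIs), a ratio of 2.54 (1.46 to 4.70). Its call too was lost under both of these settings. Another gene of this list, itself within 2-fold, was higher by the deposited p.

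ARF6 and its exchange factors gave no call beside Psd3 among 5 at the floor. The nearest relatives of Psd3 were barely read, with 5 UMIs in Cis9w and 10 in CT9w for Psd, and 12 in Cis9w and 4 in CT9w for Psd4. Psd2 had a single UMI in the 6 proximal tubule clusters. Likewise none of the 12 other genes at the floor among DOCK exchange factors, their ELMO partners and the GTPases they act on was called. Dock9, of the same CDC42-directed subfamily as Dock10, averaged 1.10 in Cis9w and 1.21 in CT9w, a ratio of 0.906 (0.858 to 0.956), and had 4.21% of its proximal tubule UMIs in PT-injury/repair. Dock11, the third of that subfamily, was under the floor with 43 UMIs in Cis9w and 13 in CT9w, a ratio of 1.98 (1.05 to 4.01), and 69.5% of its proximal tubule UMIs were in PT-injury/repair.

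Of 9 netrin, slit and related guidance genes at the floor, 2 were called higher and none lower. Both encode receptors of slit proteins, and both calls were lost by the deposited p and with the floor at the 75th percentile. Robo2 averaged 0.0631 in Cis9w (193 UMIs) and 0.0218 in CT9w (40 UMIs), a ratio of 2.89 (2.05 to 4.17), and Robo1 averaged 0.0683 in Cis9w (209 UMIs) and 0.0322 in CT9w (59 UMIs), a ratio of 2.12 (1.58 to 2.88). Robo1 had 85.2% of its proximal tubule UMIs in PT-injury/repair and Robo2 49.8%. None of 9 ephrin and Eph receptor genes was called, and their median log2 fold change was 0.39.

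Neural adhesion and synaptic organiser genes went both ways, with 5 of 23 called higher, 3 lower and 15 within 2-fold. Nlgn1, which encodes the postsynaptic protein neuroligin, averaged 0.0314 in Cis9w (96 UMIs) and 0.00273 in CT9w (5 UMIs), a ratio of 11.5 (4.76 to 36.2). Dscaml1, an adhesion gene, averaged 0.238 in Cis9w (727 UMIs) and 0.0311 in CT9w (57 UMIs), a ratio of 7.64 (5.83 to 10.2), with 3.52% of its proximal tubule UMIs in PT-injury/repair. The teneurin gene Tenm4 had a ratio of 2.48 (1.85 to 3.37). In the other direction, Cntnap5a averaged 0.0304 in Cis9w (93 UMIs) and 0.262 in CT9w (480 UMIs), a ratio of 0.116 (0.0919 to 0.145). Ctnna2, a catenin gene of neurons, averaged 0.358 in Cis9w (1094 UMIs) and 1.46 in CT9w (2681 UMIs), a ratio of 0.244 (0.228 to 0.262), and Nfasc (neurofascin) had a ratio of 0.348 (0.249 to 0.481). By the deposited p, 3 of the 5 higher calls (Nlgn1, Dscaml1 and Tenm4) and all 3 lower calls held, and with the floor at the 75th percentile Dscaml1, Cntnap5a and Ctnna2 did. Cntnap5a, Ctnna2 and Nfasc had at most 0.393% of their proximal tubule UMIs in PT-injury/repair.

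**Figure D4:**
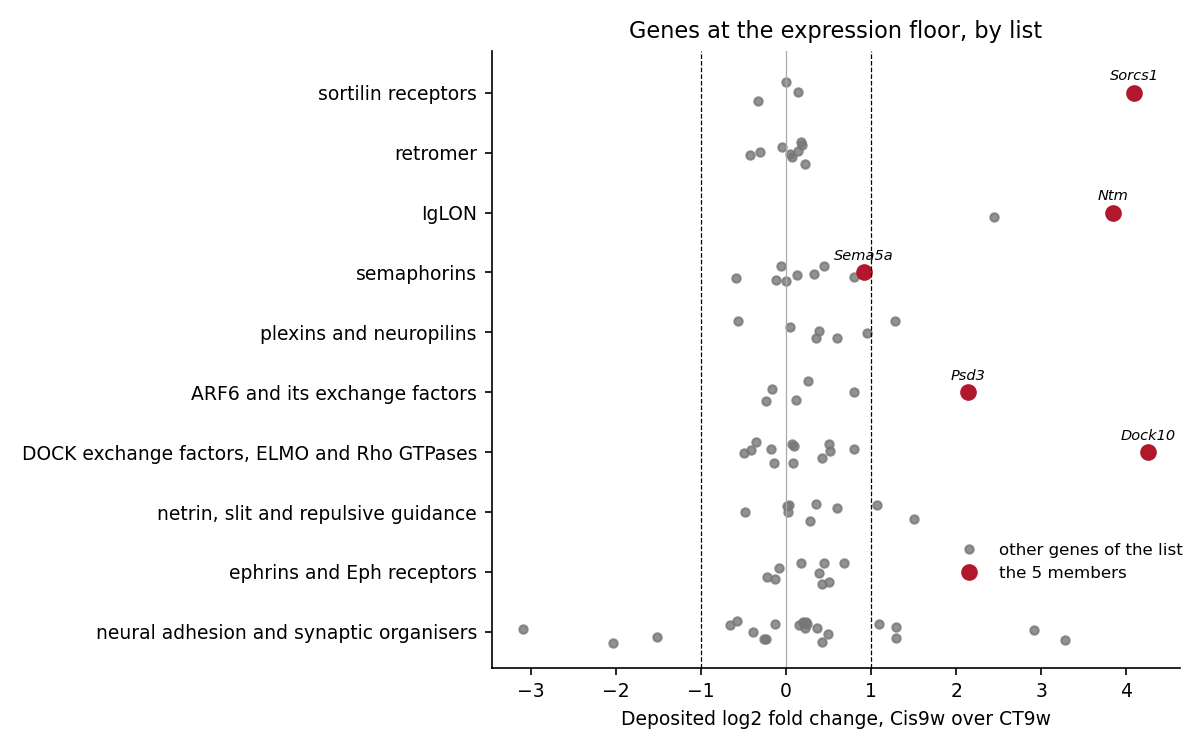
Deposited log2 fold change of Cis9w over CT9w (x axis) for genes at the expression floor in 10 lists (rows), with the 5 genes in red and the other genes in grey, scattered vertically for legibility. Dashed lines mark a fold of 2. Each of the 5 genes, picked for a higher Cis9w average, stands to the right of the other genes at the floor in its own list. With no floor, 2 other semaphorins were called higher, past Sema5a. Neural adhesion genes reach from -3.10 for Cntnap5a to 3.28 for Nlgn1.

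Markers of other cells were read in the same pools, and their part in the results above was not tested. For nerve tissue, 3 of 7 neuron markers were in the proximal tubule table, all under the floor, with a summed average of 0.00948 in Cis9w and 0.0147 in CT9w. Over the clusters the sum of the 7 was low but highest in PT-injury/repair (0.0305), followed by PT-S3-1 (0.0256). Of 5 Schwann cell markers 4 were in the table, with a higher sum of 0.0307 in Cis9w (94 UMIs) against 0.0246 in CT9w (45 UMIs). For the immune cells in which Dock10 was highest, the sum of 6 macrophage and dendritic cell markers was 0.0850 in Cis9w and 0.114 in CT9w, and 1, Csf1r, was called lower. Lymphocyte markers were also highest in Immune cells (1.77), and 4 of 6 were in the table. Their sum was 0.0271 in Cis9w (83 UMIs) and 0.0207 in CT9w (38 UMIs), and whether these sums differ was not tested. The highest single average was 0.0209 in Cis9w and 0.0153 in CT9w, so most of each sum came from 1 gene. Skap1, the only lymphocyte marker at the floor, had 54.5% of its proximal tubule UMIs in PT-injury/repair. Cd3g had 0 UMIs in CT9w. For Mixed-1, in which Psd3 was highest, the sum of 7 fibroblast and mesangium markers was 0.0258 in Cis9w and 0.0158 in CT9w, with Col1a1 and Postn at 0 UMIs in CT9w. For Podocyte, next in order for Sema5a, the sum of 5 markers was 0.0961 in Cis9w and 0.0519 in CT9w.

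Injured tubule and parietal epithelium markers had higher sums in Cis9w, and their part in the results above was not tested either. Of 13 injured tubule markers 8 were at the floor and 6 were called higher, with a summed average of 2.98 in Cis9w and 1.73 in CT9w. Of these sums Itgb6 alone made up 1.52 in Cis9w and 1.35 in CT9w, a ratio of 1.12 (1.07 to 1.18). Krt8 had a ratio of 1.14 (0.732 to 1.81) and Krt18, under the floor, of 0.838 (0.456 to 1.57). Krt20, Sox9, Ccl2 and Lcn2 had 0 UMIs in CT9w, and in Cis9w from 7 (Lcn2) to 30 (Krt20). All 3 parietal epithelium markers at the floor were called higher, and the sum of 4 was 0.220 in Cis9w and 0.0786 in CT9w. Of these calls 1 held by the deposited p and none with the floor at the 75th percentile. Ncam1 stands on both the parietal and the neural adhesion list. Parietal markers summed to 1.44 in PT-injury/repair, more than in any other cluster. Thin limb markers, also highest there (0.579), were lower in Cis9w with 0.205 against 0.261 in CT9w, and 1 of 3, Slc14a2, was called lower. Urothelium markers, highest there as well (0.144), had 5 of 6 in the table and none at the floor, and summed to 0.00784 in Cis9w (24 UMIs) and 0.0448 in CT9w (82 UMIs). Sums were 2.81 in Cis9w and 2.95 in CT9w for thick ascending limb markers, 1.36 in Cis9w and 1.30 in CT9w for distal convoluted tubule markers, 0.0879 in Cis9w and 0.0399 in CT9w for principal cell markers, 0.0922 in Cis9w and 0.0382 in CT9w for intercalated cell markers, 1.52 in Cis9w and 0.899 in CT9w for connecting tubule markers, and 0.203 in Cis9w and 0.129 in CT9w for endothelial markers. Scnn1b, 1 of 2 principal cell markers at the floor, was called higher. So were Slc26a4, the only intercalated cell marker at the floor, and Flt1, 1 of 4 endothelial markers there. By the deposited p, 1 principal cell marker was higher and no intercalated cell or endothelial marker. With the floor at the 75th percentile no call of these lists was left. The sum of 8 mitochondrially encoded transcripts was 1.49 in Cis9w and 2.21 in CT9w.

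Across the 17 clusters the 5 genes were not all alike. On log2 averages the highest Pearson r between them was 0.76, for Dock10 with Ntm, followed by 0.68 for Ntm with Sorcs1 and 0.65 for Sema5a with Sorcs1, and the lowest was 0.14, for Psd3 with Sema5a. Spearman's rho gave another order, with 0.56 for Dock10 with Ntm and 0.43 for Sema5a with Sorcs1 but 0.17 for Ntm with Sorcs1, and its lowest value was 0.13, for Psd3 with Sorcs1. These correlations are over clusters that differ in depth, and they are given as a description. Among 12234 genes in the cluster table with a mean average at or above the median, those most like Sorcs1 were Nkain2 (r = 0.90), Kcnmb2 (0.90) and Kcnip4 (0.85), of which Kcnmb2 and Kcnip4 encode potassium channel subunits or partners. For Ntm they were Adcy2, an adenylate cyclase gene (0.86), Cp, which encodes ceruloplasmin (0.86), and G930009F23Rik (0.86).

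The cadherin-like gene Fat1 (0.83), Lrrc1 (0.82) and the injury marker Dcdc2a (0.80) were most like Sema5a. For Psd3 the closest were the amino acid transporter gene Slc7a6 (0.96), Dlgap4 (0.96) and the methyltransferase gene Setd7 (0.95). For Dock10 they were the DNA repair gene Rad51b (0.92), the hyaluronan receptor gene Cd44 (0.91) and the transcription factor gene Runx1 (0.89). In the treated and untreated pools these neighbours differed in their own way, with a ratio of 5.80 (3.61 to 9.85) for Cd44 and 7.33 (5.87 to 9.27) for Kcnip4, but 1.22 (1.07 to 1.39) for Fat1. With Spearman's rho, 1 of the 3 genes was shared for Sema5a and 0 for each of the other 4 genes.

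The 5 genes also share their length. Their spans ran from 257 kb for Dock10 to 968 kb for Ntm, against a median of 29.5 kb over genes at the floor, and 480 of 10650 such genes with an annotated span were at least as long as Dock10. Without the 5, 475 genes were that long, of which 56 (11.8%) were called higher and 27 (5.68%) lower, beside 2.51% and 2.03% of all genes at the floor. Their median share in PT-injury/repair was 10.4%, against 7.26%. Of the genes annotated on the opposite strand within these spans, Gm15991 in Psd3 had 36 UMIs in Cis9w and 4 in CT9w, and 4930465K09Rik in Sema5a had 12 in Cis9w and 1 in CT9w. The sources used here do not say whether counting used the strand. Those in Sorcs1 and Ntm had at most 3 UMIs in a pool, and none was at the floor.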

How the data were processed

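Nuclear RNA of 4 kidney samples was counted in a droplet 3' assay, per the labels' protocols, and the submitters' processing notes name Cell Ranger 5.0.1 and mm10. The sources used here give no clustering method, nucleus filter, doublet or free RNA treatment, or test. Each deposited average is a signal in normalised UMIs per nucleus. The columns of the proximal tubule table share one total, and those of the cluster table share another. Per the file headers, each average has beside it a log2 fold change with its p-value, for one pool against the other or one cluster against all other nuclei. The PT-injury/repair name is from the upper header line, where the lower has a number.

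UMI sums were recovered from the averages as whole multiples of 1 step per column, within 0.1 UMI for at least 99.995% of values. With 1 column per group no count test was run. Ratios have 95% Clopper-Pearson intervals and single averages exact Poisson intervals. The recovery of UMI sums and the ratio intervals were tested on simulated data, and the Poisson intervals were not. Samples were grouped by title. Calls used a fold of 2 in the deposited table at a floor of 0.0154. Of several IDs with 1 symbol (14 symbols among proximal tubule genes) the first was kept. The 5 genes, the lists and the rule for named genes were chosen with earlier results of these data known. That rule took the closest family members, up to 3 genes per direction past 2-fold in each list, genes overlapping the 5, and the 3 most alike over clusters (pseudocount at the 10th percentile of averages). Kcnk2, the genes of marker lists at 0, Itgb6, Krt8, Krt18, Skap1, Scnn1b, Slc26a4 and Flt1 were named after their values were seen. The result of 1 marker gene is not reported here, and its list is given without it. Gene spans are from GENCODE M21. Python 3.11.15, NumPy 2.4.6, pandas 2.3.3 and SciPy 1.17.1 were used.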

Additional observations from a re-analysis of the deposited data

How the results depend on the processing

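The ratios of all 5 genes stayed within their counting intervals under the deposited fold changes, a pseudocount, scaling by total UMIs and subtraction of the median log2 fold change. With the 6 proximal tubule clusters weighted equally, shares in PT-injury/repair were 98.9% for Sorcs1, 92.2% for Ntm, 63.8% for Sema5a, 86.0% for Psd3 and 93.2% for Dock10. Among other genes of the 10 lists, the 9 called higher became 26 with no floor (7.50% of all genes), 1 with a floor at the 75th percentile (1.16%), 16 at a fold of 1.5 (6.95%) and 4 by the deposited p (1.51%). The 3 called lower became 13 with no floor (9.93% of all genes) and 5 at a fold of 1.5 (5.35%). For single lists with a count above 0, 34 of 60 counts under these settings stayed within 1.5 times. No paired analysis was possible because the columns pool nuclei and carry no replicate number, and for the same reason no replicate could be left out. Depth limits Sorcs1, Ntm and Dock10 in CT9w, where they rest on 8, 7 and 27 UMIs.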
